A study of Mus musculus with 13 samples.

Results

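Gpnmb, Spp1, Igf1, Lgals1, Lgals3 and Lgals9 encode secreted proteins and glycoproteins that have been used as markers of the microglia found around amyloid plaques, above all at late stages. These 6 genes, taken as a named list out of 55536 genes in the deposited tables, were followed across frontal cortex of 5XFAD and wild-type mice at 2 ages. They were chosen by their expected counts in these same 5XFAD and wild-type libraries. Every difference between their groups, the wild-type ages included, is therefore given as a description. Test calls for them appear only as counts, set beside the share of all genes, and are not used as support.

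The libraries came from 5XFAD mice at 6 months (n = 3), wild-type B6SJLF1/J mice at 6 months (n = 4), 5XFAD mice at 11 months (n = 3) and wild-type B6SJLF1/J mice at 11 months (n = 3). 5XFAD mice carry mutant human transgenes, among them APP, the gene of the amyloid precursor protein, under the control of mouse Thy1 regulatory sequence, which is active mainly in neurons. Total RNA was taken from whole frontal cortex, so every value is a sum over the cell types of the tissue. The labels do not say whether each library is 1 animal, so the p-values cover the spread from library to library, part of which may be technical.

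Microglia are the resident macrophages of the brain. Around amyloid plaques they take up a lipid-handling and phagocytic state in which surface sensors such as Trem2 act upstream of a set of lysosomal, secreted and adhesion genes. Gpnmb is a transmembrane glycoprotein of lysosomes and the cell surface, Spp1 encodes osteopontin, a secreted phosphoprotein that binds integrins and Cd44, and Igf1 encodes insulin-like growth factor, a secreted hormone that signals through Igf1r. Galectins bind beta-galactoside sugars: Lgals1 is made by many cell types, Lgals3 is made by activated macrophages and binds damaged lysosomes, and Lgals9 has tandem sugar-binding domains and is bound by Tim-3, the product of Havcr2.

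The library totals ran from 23618296 to 26615776 counts. Microglia markers were detected in all libraries, and the 10 genes of that list summed to 557 to 593 CPM (depth-scaled counts, with TMM factors) in 5XFAD and 301 to 310 CPM in wild type at 6 months. Those of 11 months summed to 959 to 1323 CPM in 5XFAD and 311 to 535 CPM in wild type at 11 months. Wild-type replicate 1 at 6 months stood apart through choroid plexus markers, which summed to 2976 CPM there and to 5.21 to 38.0 CPM in the other 12 libraries, so values at 6 months that depend on it are also given without it. The sexes read from the counts were not balanced: the 5XFAD group at 6 months was 3 males and the wild-type group 2 females and 2 males, while at 11 months there were 2 females and 1 male in 5XFAD and 1 female and 2 males in wild type. All 6 genes passed the filter on low counts that kept 17483 genes, and the lowest count of any of them in a library was 11.

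The RefSeq windows around the annotated starts (GRCm38.p6, 250 bases before to 50 after) are shown for Gpnmb, Spp1 and Igf1, the genes outside the galectin family, because macrophage factors are known to bind such elements and each window held a match. Capitals mark the matches to TGANTCA, a loose form of the AP-1 motif, and to GAGGAA, a core of the motif of PU.1, the macrophage lineage factor. The AP-1 motif itself has C or G as the middle base. The Gpnmb match, TGACTCA, has C there, while the Igf1 match, TGAATCA, has A and fits the loose form only. They lie at chr6:49036268-49036567 for Gpnmb, chr5:104434861-104435160 for Spp1 and chr10:87860861-87861160 for Igf1, all on the plus strand, read 5′ to 3′.
Gpnmb: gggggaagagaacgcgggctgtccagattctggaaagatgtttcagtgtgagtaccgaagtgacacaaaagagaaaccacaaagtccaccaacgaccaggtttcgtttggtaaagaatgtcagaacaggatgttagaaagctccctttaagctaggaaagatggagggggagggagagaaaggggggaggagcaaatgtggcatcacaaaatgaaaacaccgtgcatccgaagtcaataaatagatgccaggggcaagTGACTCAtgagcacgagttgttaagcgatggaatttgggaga
Spp1: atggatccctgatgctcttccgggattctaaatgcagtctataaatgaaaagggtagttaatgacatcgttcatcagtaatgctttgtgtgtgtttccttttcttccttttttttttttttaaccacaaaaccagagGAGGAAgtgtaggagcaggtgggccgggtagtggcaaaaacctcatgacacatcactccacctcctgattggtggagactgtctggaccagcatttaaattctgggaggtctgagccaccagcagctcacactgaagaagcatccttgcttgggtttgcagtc
Igf1: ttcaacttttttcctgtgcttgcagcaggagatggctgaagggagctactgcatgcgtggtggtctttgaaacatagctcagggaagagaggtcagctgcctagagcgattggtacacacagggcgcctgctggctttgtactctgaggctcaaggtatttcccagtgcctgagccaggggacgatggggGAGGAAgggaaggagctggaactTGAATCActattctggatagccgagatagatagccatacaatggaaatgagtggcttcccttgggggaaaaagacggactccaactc
The searched motifs were CACGTG (E-box), CATGTG (a core of the M-box of Mitf), TGANTCA and GAGGAA, on both strands. In all 32851 windows of this length they stood in 7.15%, 14.2%, 7.81% and 28.3% of windows, in that order. Gpnmb held TGANTCA from position 9, counted with the start base as the first. Spp1 held GAGGAA from position -113 relative to the start, and Igf1 held TGANTCA from position -37 and GAGGAA from position -60. The Lgals9 window held CATGTG from position -182 and GAGGAA from positions -244 and -199, and none of these letters stood in the Lgals3 window or in a further Spp1 window. Windows were matched by symbol for 5 of the 6 genes, and a match is a description of letters, not of a bound site. The Igf1 and Lgals3 windows lie inside the genes as GENCODE annotates them, which begin at chr10:87858265 and chr14:47367751. The Igf1 positions are therefore relative to a RefSeq start within the gene.

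Gpnmb (ENSMUSG00000029816, GRCm38 chr6:49036546-49070929, plus strand) had the widest range. At 6 months it stood at 3.06, 4.78 and 7.27 CPM in 5XFAD libraries, against 2.62, 1.22, 1.47 and 1.80 CPM in wild-type libraries. The 11-month levels of Gpnmb were 40.2, 30.4 and 52.8 CPM in 5XFAD libraries, against 1.195, 2.46 and 2.25 CPM in wild-type libraries. The 5XFAD libraries lay above all wild-type libraries at both ages, narrowly at 6 months and by more than the whole wild-type range at 11 months. The log2 fold change of 5XFAD over wild type was 1.50 ± 0.34 (SE) at 6 months and 4.38 ± 0.38 at 11 months, the larger being 20.9-fold. Without wild-type replicate 1, the highest wild-type library for Gpnmb at 6 months, the value at that age was 1.75.

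Spp1 (ENSMUSG00000029304, chr5:104435118-104441050, plus strand) stood at 17.6, 12.7 and 17.1 CPM in 5XFAD libraries at 6 months, against 9.50, 4.79, 11.1 and 5.72 CPM in wild-type libraries. The 11-month levels of Spp1 were 58.9, 53.4 and 62.4 CPM in 5XFAD libraries, against 6.34, 5.41 and 9.70 CPM in wild-type libraries. The lowest 5XFAD library at 6 months was close to the highest wild-type library, and at 11 months the 3 5XFAD libraries were tight and far above. The log2 fold changes were 1.02 ± 0.27 and 3.03 ± 0.30 (SE), the larger being 8.15-fold. Gm42793, which is annotated inside Spp1, held 0 to 3 counts, and how reads of the pair were divided by the counting was not tested.

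**Figure D1:**
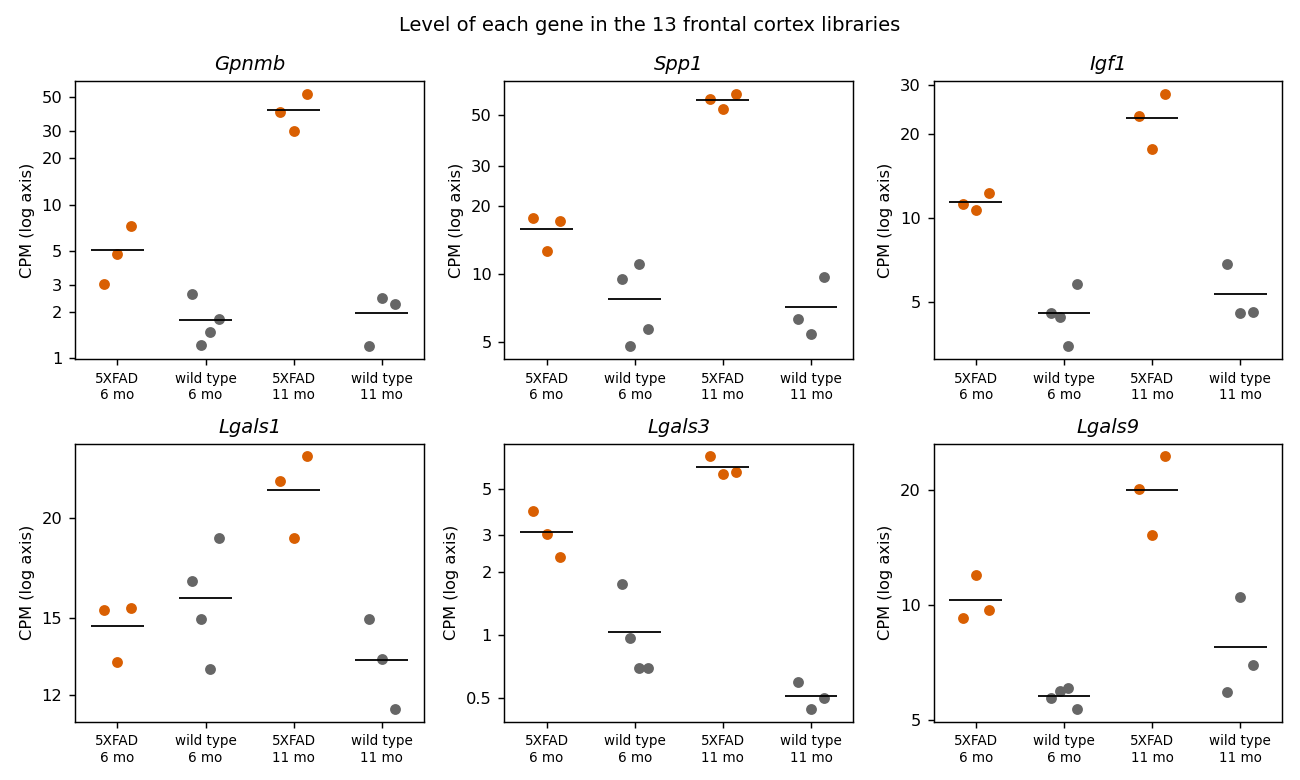
Level of each of the 6 genes in CPM (vertical log axes, 1 panel per gene) in 5XFAD (orange) and wild-type (grey) libraries at 6 and 11 months; points are libraries and lines are group means. The 3 5XFAD libraries at 11 months are above all others in every panel but that of Lgals1, where the lowest of them and the highest wild-type library at 6 months are both at 18.9 CPM, and Lgals1 is the panel in which 5XFAD and wild type overlap at 6 months.

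Igf1 (ENSMUSG00000020053, chr10:87858265-87937042, plus strand) stood at 11.2, 10.7 and 12.2 CPM in 5XFAD libraries at 6 months, against 4.55, 4.39, 3.45 and 5.80 CPM in wild-type libraries. At 11 months it stood at 23.1, 17.6 and 27.9 CPM in 5XFAD libraries, against 6.81, 4.56 and 4.58 CPM in wild-type libraries. The groups did not overlap at either age, and the 6-month 5XFAD libraries differed from each other by less than those of Gpnmb. The log2 fold changes were 1.32 ± 0.20 and 2.10 ± 0.21 (SE). The antisense gene Igf1os held 0 to 4 counts; the sources used here do not state the strand setting of the counting.

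The transcripts assigned to Igf1 were shorter in 5XFAD cortex. The deposited mean transcript length, weighted by the abundance of each isoform, was 2465, 2972 and 2250 bases in 5XFAD libraries at 6 months, against 4783, 4353, 4389 and 5849 bases in wild-type libraries. The 11-month lengths were 1722, 1931 and 1602 bases in 5XFAD libraries, against 4924, 4758 and 3193 bases in wild-type libraries. No 5XFAD library reached the shortest wild-type value of its age. The log2 ratio of mean lengths was -0.92 at 6 months and -1.29 at 11 months. Of 14350 tested genes with several transcripts, 14 (0.0976%) at 6 months and 5 (0.0348%) at 11 months, Igf1 included, had a length ratio at least as large in either direction. Igf1 has 8 annotated transcripts of 510 to 7052 bases; the longest is Igf1-202 and the next longest has 2292 bases. These lengths rest on the isoform shares that RSEM estimated from 89 to 719 reads per library.

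**Figure D2:**
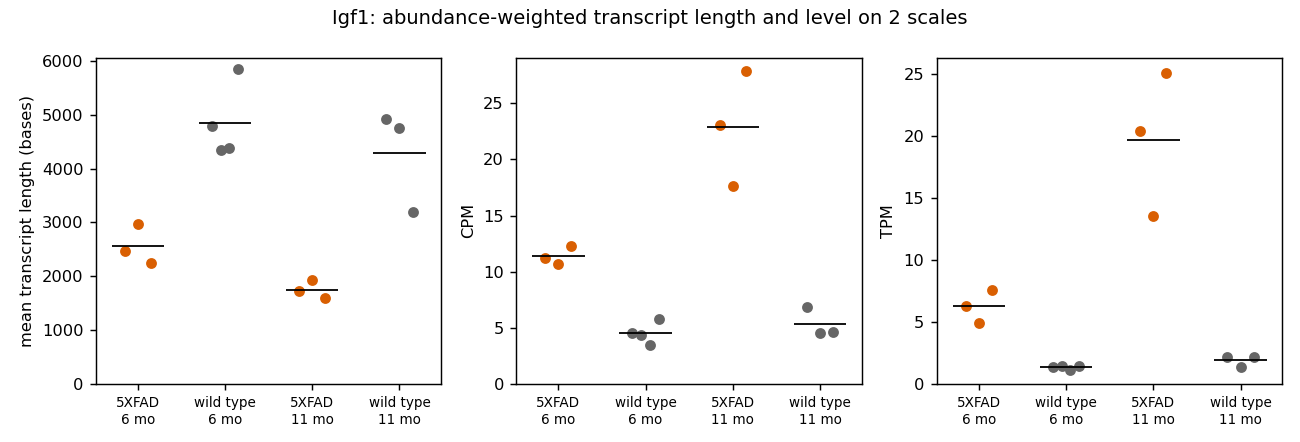
Mean transcript length of Igf1 in bases (left panel) and its level in CPM (middle) and TPM (right), on the vertical axes. Libraries of 5XFAD (orange) and wild type (grey) are shown at 6 and 11 months, with points for libraries and lines for group means. The 5XFAD libraries lie between 1602 and 2972 bases and the wild-type libraries between 3193 and 5849 bases.

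Because TPM, the deposited level per transcript length, divides by this length, the scale changed the Igf1 difference. The ratio of group means, 5XFAD over wild type, was 2.50 in CPM and 4.63 in TPM at 6 months, and 4.30 in CPM and 10.4 in TPM at 11 months. For Gpnmb the ratio at 11 months was 20.9 in CPM and 13.03 in TPM. The Gpnmb lengths overlapped between the groups, and the wild-type estimates there came from only 30 to 61 reads per library. For the other genes the scales differed less: at 11 months the ratio was 8.14 in CPM and 7.38 in TPM for Spp1, and 12.4 in CPM and 10.7 in TPM for Lgals3.

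The galectins differed among themselves. Lgals3 (ENSMUSG00000050335, chr14:47367751-47386160, plus strand) was the lowest in wild type and had the largest ratio of the 3. At 6 months it stood at 3.93, 3.05 and 2.37 CPM in 5XFAD libraries, against 1.76, 0.975, 0.698 and 0.694 CPM in wild-type libraries. At 11 months it stood at 7.16, 5.89 and 6.01 CPM in 5XFAD libraries, against 0.598, 0.444 and 0.4997 CPM in wild-type libraries. The genotypes did not overlap at either age. The log2 fold changes of Lgals3 were 1.59 ± 0.30 and 3.61 ± 0.35 (SE), the larger being 12.2-fold. Without wild-type replicate 1 the value at 6 months was 1.98. With sex as a covariate the values were 1.90 at 6 months and 3.46 at 11 months.

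Lgals9 (ENSMUSG00000001123, chr11:78962974-78984946, minus strand) stood at 9.26, 11.97 and 9.68 CPM in 5XFAD libraries at 6 months, against 5.73, 5.97, 6.09 and 5.35 CPM in wild-type libraries. The 11-month levels of Lgals9 were 20.1, 15.2 and 24.4 CPM in 5XFAD libraries, against 5.94, 10.5 and 6.95 CPM in wild-type libraries. The genotypes did not overlap within an age, although wild-type replicate 2 at 11 months was above 2 of the 3 5XFAD libraries at 6 months; that library also had the highest sum of microglia markers in its group, 535 CPM. The log2 fold changes of Lgals9 were 0.83 ± 0.19 and 1.35 ± 0.21 (SE). Lgals1 (ENSMUSG00000068220, chr15:78926725-78930465, plus strand) stood at 15.3, 13.2 and 15.4 CPM in 5XFAD libraries at 6 months, against 16.7, 14.95, 12.96 and 18.9 CPM in wild-type libraries, and these overlapped. At 11 months Lgals1 stood at 22.3, 18.9 and 23.9 CPM in 5XFAD libraries, against 14.9, 13.3 and 11.5 CPM in wild-type libraries, with no overlap. The log2 fold changes of Lgals1 were -0.11 ± 0.14 and 0.71 ± 0.15 (SE). Leaving out single libraries moved the 6-month value between -0.20 and -0.0193. Its processed pseudogenes Lgals1-ps1 and Lgals1-ps2 held 0 and 0 to 5.43 counts, and how shared reads were divided was not tested.

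**Figure D3:**
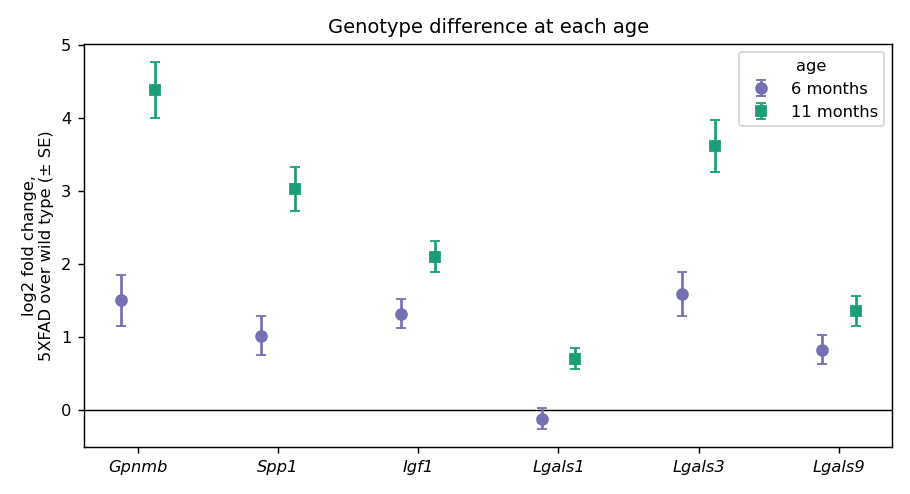
Log2 fold change of 5XFAD over wild type from the fit over all genes (vertical axis, bars are SE) for the 6 genes at 6 months (circles) and 11 months (squares). The value at 11 months is the larger for all 6, from 0.71 for Lgals1 to 4.38 for Gpnmb, and only Lgals1 at 6 months lies below 0.

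Levels between genes can be compared per length, in TPM. In wild-type cortex Lgals1 was the highest, at 38.9 ± 6.16 TPM at 6 months and 33.4 ± 5.66 TPM at 11 months (SD), and made up 66.8% and 61.2% of the summed TPM of the 6 genes. In 5XFAD cortex at 11 months Spp1 was the highest, at 63.4 ± 3.78 TPM, with Lgals1 at 49.3 ± 5.08 TPM, and their shares were 36.1% and 27.99%. The summed TPM of the 6 genes was 71.8 ± 4.98 in 5XFAD and 58.0 ± 5.58 in wild type at 6 months, and 176.64 ± 22.4 in 5XFAD and 54.4 ± 4.20 in wild type at 11 months. The 5XFAD sums lay above the wild-type sums with no overlap at either age.

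The order of the 4 groups in CPM began with 5XFAD at 11 months for every gene. For Gpnmb, Igf1 and Spp1 the next was 5XFAD at 6 months, and the wild-type groups overlapped each other. For Lgals3 the order was 5XFAD at 11 months, 5XFAD at 6 months, wild type at 6 months and wild type at 11 months, and no neighbours overlapped. For Lgals9 the order was 5XFAD at 11 months, 5XFAD at 6 months, wild type at 11 months and wild type at 6 months, each of the last 3 overlapping its neighbour. For Lgals1 the order below 5XFAD at 11 months was wild type at 6 months, 5XFAD at 6 months and wild type at 11 months, all overlapping their neighbours. Within 5XFAD, the log2 fold change of 11 over 6 months was 3.03 for Gpnmb, 1.88 for Spp1, 1.03 for Lgals3, 1.01 for Igf1, 0.95 for Lgals9 and 0.56 for Lgals1. By the counts the 6-month 5XFAD libraries were all male, and those of 11 months were 2 females and 1 male. That male was the lowest 5XFAD library of 11 months for every gene. Fitting sex as a covariate gave, in the same order of genes, 2.94, 1.96, 0.69, 0.78, 0.93 and 0.46. The genotype difference itself was larger at 11 months by 2.88 ± 0.50 for Gpnmb, 2.02 ± 0.46 for Lgals3, 2.01 ± 0.40 for Spp1, 0.82 ± 0.20 for Lgals1, 0.78 ± 0.29 for Igf1 and 0.52 ± 0.28 for Lgals9 (log2, SE). Without wild-type replicate 1 at 6 months the value for Lgals3 was 1.64, and without wild-type replicate 2 at 11 months that for Lgals9 was 0.79.

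Since the rule used these contrasts, the counts of calls are given only beside the share of all genes. By edgeR's quasi-likelihood test with an adjusted p under 0.05, 2 of the 6 genes were higher in 5XFAD at 6 months, where 1.3% of all tested genes were, and 6 of 6 at 11 months, where 3.8% were. Between the 5XFAD ages 5 of 6 were higher at 11 months, where 4.84% of all tested genes were. None of the 6 passed for the growth of the genotype difference, where 0.00572% of all tested genes did, while 5 were under an unadjusted p of 0.05, where 3.96% were. The 5XFAD libraries lay above all wild-type libraries for 5 of 6 genes at 6 months (6.97% of all tested genes) and 6 of 6 at 11 months (10.4%), and the 5XFAD libraries of 11 months lay above those of 6 months for 6 of 6 (18.4%). The median log2 fold change of the 6 was 1.17 at 6 months and 2.56 at 11 months, and that of all tested genes was -0.01 and -0.03. The 2 genotype comparisons with 5XFAD at the 2 ages share no libraries, but each shares its own with an age comparison.

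Between the wild-type ages the 6 genes had log2 fold changes of 11 over 6 months from -0.996 to 0.43. By edgeR's quasi-likelihood test 0 of 6 had an adjusted p under 0.05 and 2 had an unadjusted p under 0.05, and DESeq2 also called 0 with 2 at an unadjusted p under 0.05, while 3.71% of all tested genes passed in edgeR and 23.8% were under the unadjusted threshold. Lgals3 averaged 0.514 ± 0.0777 CPM at 11 months (n = 3) and 1.03 ± 0.503 CPM at 6 months (SD, n = 4), and the ages did not overlap, the only such case among the 6 (7.96% of all tested genes were lower with no overlap). Its log2 fold change was -0.996 ± 0.35 (SE). Without wild-type replicate 1 at 6 months, the library rich in choroid plexus markers, the Lgals3 difference was -0.61. Lgals9 averaged 7.78 ± 2.37 CPM at 11 months and 5.79 ± 0.326 CPM at 6 months (SD), a log2 fold change of 0.43 ± 0.20 (SE) that was 0.15 without wild-type replicate 2 at 11 months. The log2 fold changes of Gpnmb (0.15 ± 0.37), Spp1 (-0.12 ± 0.28), Igf1 (0.23 ± 0.20) and Lgals1 (-0.26 ± 0.14) were each less than 2 SE from 0. Without wild-type replicate 2 at 11 months the values of Gpnmb and Spp1 were -0.0483 and 0.0432, and without wild-type replicate 3 at 6 months that of Spp1 was 0.0985. The value of Igf1 was 0.00941 without wild-type replicate 1 at 11 months, 0.12 without replicate 3 and 0.37 without replicate 4 at 6 months. That of Lgals1 was -0.16 without wild-type replicate 4 at 6 months and -0.17 without replicate 3 at 11 months. For Gpnmb it was 0.39 without wild-type replicate 1 at 6 months.

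The microglia markers also differed by genotype. Of the 10 markers, 6 were higher in 5XFAD at 6 months and 9 at 11 months by edgeR's quasi-likelihood test (1.3% and 3.8% of all tested genes), and none was lower. In bulk tissue a change in the number of cells of a type and a change in RNA per cell cannot be told apart. Each gene was therefore also set over the summed CPM of the 10 markers in the same library, as a log2 ratio, and this ratio is described with no test. For Gpnmb the ratio was higher in 5XFAD by 0.57 at 6 months, with overlap (0.88 without 5XFAD replicate 1 and 0.28 without 5XFAD replicate 3), and by 3.03 at 11 months, with no overlap. For Lgals3 the differences were 0.77 with overlap and 2.25 with none, and for Spp1 they were 0.19 with overlap and 1.68 with none. Leaving out wild-type replicate 1 of 6 months gave 6-month differences of 0.78 for Gpnmb, 1.07 for Lgals3 and 0.32 for Spp1. For Lgals3 the overlap came from that library alone, at -7.42, where the lowest 5XFAD library was at -7.97. The value of Spp1 at 6 months ran from -0.0171 without wild-type replicate 2 to 0.38 without wild-type replicate 3 and hung on single libraries of both genotypes. For Igf1 they were 0.44 with no overlap and 0.72 with overlap, the second being 1.11 without wild-type replicate 1 and 0.43 without wild-type replicate 2.

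The remaining galectins had other ratios to the markers. For Lgals9 the difference of 5XFAD minus wild type was -0.08 at 6 months and -0.02 at 11 months, the libraries overlapped at both ages, and with Csf1r as the only marker the differences were 0.0226 and 0.0800. Leaving out single libraries gave -0.22 to -0.0117 at 6 months. At 11 months the Lgals9 difference was -0.10 without 5XFAD replicate 1, 0.0785 without 5XFAD replicate 2, and 0.0123 and 0.0288 without wild-type replicates 1 and 2. Lgals9 in CPM and the microglia markers were thus higher in 5XFAD by about the same factor. For Lgals1 the ratio was lower in 5XFAD by -1.01 at 6 months and -0.68 at 11 months, with no overlap at either age, and by -0.39 at 11 months without wild-type replicate 1. Whether the rise in microglia markers has a part in the levels of these genes was not tested.

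**Figure D4:**
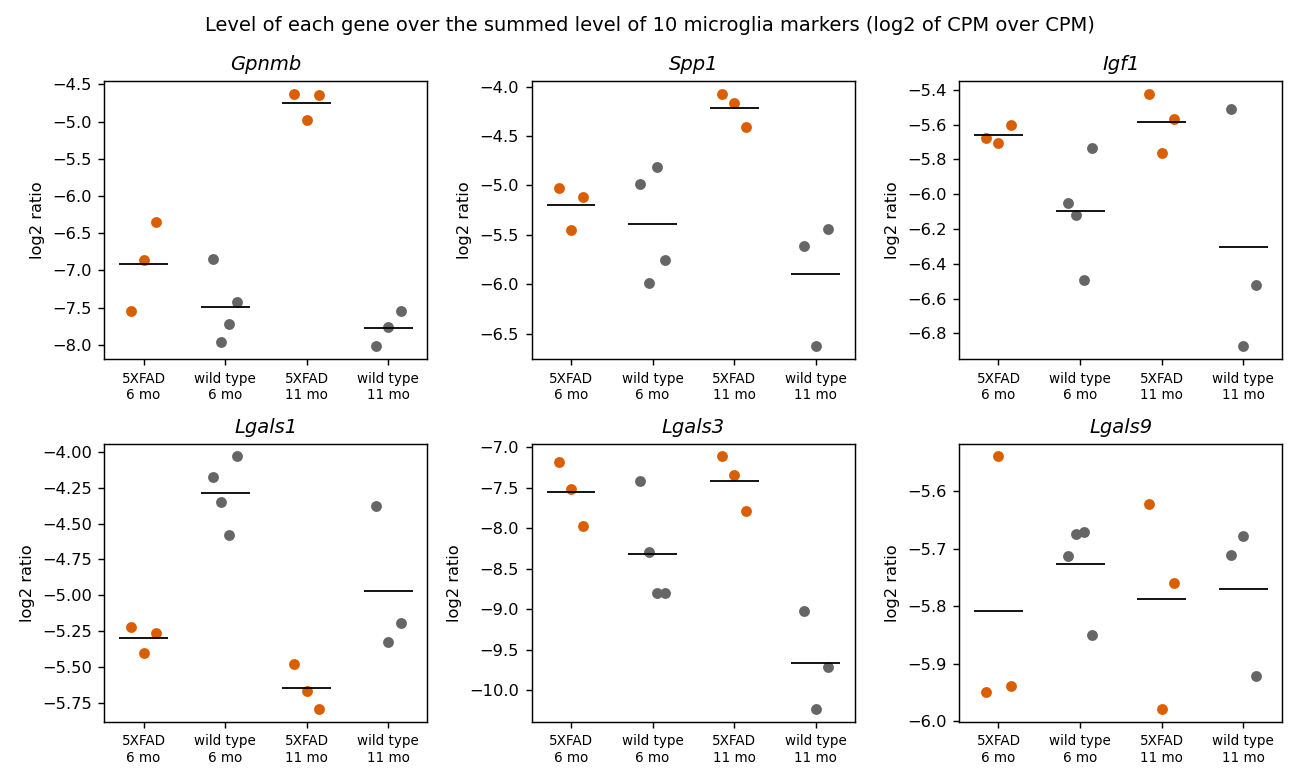
Log2 ratio of each gene's CPM to the summed CPM of 10 microglia markers (vertical axes, 1 panel per gene) in 5XFAD (orange) and wild-type (grey) libraries at 6 and 11 months; points are libraries and lines are group means. At 11 months the 5XFAD libraries lie above wild type with no overlap for Gpnmb, Spp1 and Lgals3, overlap wild type for Igf1 and Lgals9, and lie below it for Lgals1.

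Among markers of other cells that could hold these transcripts, those of border macrophages, monocytes and lymphocytes were low, and those of astrocytes, and of lymphocytes at 11 months, had higher sums in 5XFAD. The 6 border macrophage markers summed to 1.52 to 4.49 CPM over all 13 libraries. None passed the test in either genotype comparison in edgeR, where 1.3% and 3.8% of all tested genes were higher. The 6 monocyte markers summed to 18.1 to 21.0 CPM in 5XFAD and 15.2 to 18.0 CPM in wild type at 6 months. They summed to 21.8 to 25.9 CPM in 5XFAD and 21.3 to 25.2 CPM in wild type at 11 months. At that age 1 of the 2 tested was higher in 5XFAD (3.8% of all tested genes). The 6 lymphocyte markers summed to 0.350 to 0.465 CPM in 5XFAD and 0.244 to 0.504 CPM in wild type at 6 months. Their 11-month sums were 1.08 to 1.33 CPM in 5XFAD and 0.283 to 0.791 CPM in wild type, with no overlap, and none of them was abundant enough to be tested. The 6 astrocyte markers summed to 1895 to 2202 CPM in 5XFAD and 1339 to 1514 CPM in wild type at 6 months. Their sums were 3315 to 3909 CPM in 5XFAD and 1659 to 2708 CPM in wild type at 11 months. Of these markers 1 was higher in 5XFAD at 6 months and 2 at 11 months (1.3% and 3.8% of all tested genes). The part of astrocytes or lymphocytes in the levels of the 6 genes was not tested.

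Likeness of pattern was measured as the root mean square difference between genes in log2(CPM + 0.5), each centred on its own mean over the 13 libraries. Among 13665 protein-coding genes the 3 nearest to Gpnmb were Cd74, the invariant chain of MHC class II (0.49), Serpina3n, a secreted protease inhibitor (0.52), and Ly9, a SLAM-family surface receptor (0.56). Those nearest to Spp1 were Gpr65, an acid-sensing receptor (0.35), H2-Ab1, an MHC class II chain (0.36), and again Cd74 (0.37). Those nearest to Igf1 were Gpr183, an oxysterol receptor (0.20), Slc14a1, a urea transporter (0.22), and Ang, a secreted ribonuclease (0.22). Of these, Cd74 averaged 30.9 CPM in 5XFAD and 2.72 CPM in wild type at 11 months, and Slc14a1 averaged 37.1 CPM in 5XFAD and 7.79 CPM in wild type.

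Of the galectins, Lgals3 was nearest to Slc14a1 (0.35), the stress transcription factor gene Atf3 (0.36) and the galactosyltransferase gene Ggta1 (0.38). Lgals9 was nearest to H2-K1, an MHC class I heavy chain (0.10), Unc93b1, a chaperone of endosomal Toll-like receptors (0.13), and Rnase4, a secreted ribonuclease (0.14). Lgals1 was nearest to Slc3a2, an amino acid transporter chain (0.16), Taf6l, a chromatin complex subunit (0.16), and Glb1, the lysosomal beta-galactosidase that removes the sugar galectins bind (0.16). Among the 6 genes themselves, Igf1 and Lgals9 were the nearest pair (0.43), followed by Igf1 and Lgals3 (0.45), and Gpnmb and Lgals1 were the farthest (1.50). These distances share the libraries and their depth. They were not scaled by the spread of each gene, so genes that vary little lie near each other whatever their patterns. With a pseudocount of 0.1, 11 of the 18 nearest genes were named again.

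The known partners and relatives of the 6 genes were taken as 5 lists, of which 53 genes were tested. These lists were chosen with earlier results of these data known. The counts and p-values of their genes are therefore a description, and no excess over all genes is claimed. By edgeR's quasi-likelihood test 7 of them (13.2%) were higher in 5XFAD at 6 months and 11 (20.8%) at 11 months (7 with only the compared groups in the fit), where 1.3% and 3.8% of all tested genes were (4 at 6 months without wild-type replicate 4), and 0 were lower at either age, where 0.0172% and 0.503% of all tested genes were. At an unadjusted p under 0.05, 14 of the 53 differed at 6 months (9.09% of all tested genes) and 19 at 11 months (15.8%), of which 1 and 2 were lower, and DESeq2 called 1 lower at 11 months, Pappa2, a protease of IGF-binding proteins. None of the 53 passed in edgeR or DESeq2 for the growth of the genotype difference (0.00572% of all tested genes in edgeR). Of the 53, 6 had an unadjusted p under 0.05 for it in edgeR (3.96% of all tested genes). The median log2 fold change of the 53 was 0.13 at 6 months and 0.17 at 11 months, and that of all tested genes was -0.01 and -0.03.

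Of 12 genes for galectin partners and the sugars they bind, 5 rose in 5XFAD at 6 months and 6 at 11 months. Of all tested genes 1.3% and 3.8% were higher. Trem2, a lipid-sensing receptor of microglia that has been reported to bind galectin-3, stood at 79.9, 99.6 and 119 CPM in 5XFAD libraries at 6 months, against 23.3, 19.3, 22.7 and 23.1 CPM in wild-type libraries. By 11 months it stood at 214, 148 and 271 CPM in 5XFAD libraries, against 18.9, 33.0 and 23.7 CPM in wild-type libraries. Trem2 rose by 2.17 ± 0.22 (log2, SE; adjusted p = 0.000135) and 3.06 ± 0.25 (adjusted p = 9.89e-06). Lgals3bp, a secreted glycoprotein bound by galectins, stood at 90.4, 60.3 and 145 CPM in 5XFAD libraries at 11 months, against 10.4, 19.3 and 18.0 CPM in wild-type libraries, and rose by 2.63 ± 0.34 (adjusted p = 0.000611). At 6 months Lgals3bp rose by 1.73 ± 0.31 (adjusted p = 0.0166), a call that was lost without any 1 of wild-type replicates 1, 3 and 4 or 5XFAD replicates 2 and 3 (adjusted p of 0.0553 to 0.0790) and with no filter on low counts (0.0692). Havcr2, the receptor Tim-3, rose by 1.48 ± 0.21 (adjusted p = 0.00151) and 1.68 ± 0.22 (adjusted p = 0.000341).

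Ptprc, the leukocyte phosphatase CD45, whose sugars bind galectin-1, rose by 1.60 ± 0.24 at 6 months (adjusted p = 0.0028) and 2.17 ± 0.26 at 11 months (adjusted p = 0.000124). The lysosomal membrane protein gene Lamp2 rose less, by 0.49 ± 0.09 (adjusted p = 0.0135) and 0.78 ± 0.10 (adjusted p = 0.000208). Its call at 6 months was lost without 5XFAD replicate 1 (adjusted p = 0.0613) or 2 (0.0790), with sex as a covariate (0.0553) and in limma on log2(TPM + 1) (0.124). Lamp1, named here after its values were seen, rose at 11 months by 0.46 ± 0.09 (adjusted p = 0.0111) and completed the 6. Of the 4 other galectin genes tested, 0 passed in edgeR or DESeq2. At an unadjusted p under 0.05, either tool had 0 at 6 months and 1 at 11 months. The edgeR shares of all tested genes were 9.09% and 15.8%. The most abundant of the 4, the galectin-related gene Lgalsl, averaged 62.0 CPM in 5XFAD and 56.9 CPM in wild type at 6 months. At 11 months it averaged 51.5 CPM in 5XFAD and 57.5 CPM in wild type.

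Of 12 tested genes for osteopontin receptors, proteases and relatives, 2 rose at 6 months and 3 at 11 months. Over all tested genes the shares were 1.3% and 3.8%. Cd44, a receptor of osteopontin and hyaluronan, stood at 3.90, 2.79 and 4.66 CPM in 5XFAD libraries at 6 months, against 4.30, 2.60, 2.13 and 3.19 CPM in wild-type libraries, and these overlapped. At 11 months Cd44 stood at 8.90, 5.00 and 8.95 CPM in 5XFAD libraries, against 1.31, 1.25 and 2.71 CPM in wild-type libraries, with no overlap. The log2 fold change of Cd44 was 0.31 ± 0.32 at 6 months (adjusted p = 0.851) and 2.12 ± 0.35 at 11 months (adjusted p = 0.00235). Itgb5, an integrin chain that pairs with the alpha-v chain to bind osteopontin, rose by 0.80 ± 0.15 (adjusted p = 0.0155) and 1.12 ± 0.16 (adjusted p = 0.000746). The call of Itgb5 at 6 months was lost without wild-type replicate 2 (adjusted p = 0.0635) or 4 (0.0641) or 5XFAD replicate 3 (0.108), and with sex as a covariate (0.0590).

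Mmp12, the macrophage elastase, which cuts osteopontin, was detected almost only in 5XFAD: its counts were 25 in 5XFAD and 1 in wild type at 6 months, and 36 in 5XFAD and 1 in wild type at 11 months. The ratios of depth-scaled counts were 33.3 (95% interval 5.45 to 1367) and 35.3 (5.94 to 1433), intervals that cover counting error only. Its adjusted p in edgeR was 0.0164 at 6 months and 0.00534 at 11 months. At 6 months the adjusted p ran from 0.0505 to 0.0975 without any 1 of wild-type replicates 1, 3 and 4 or 5XFAD replicate 1. It was 0.166 in limma on log2(TPM + 1). With at most 1 count in any wild-type library, Mmp12 passed the filter on low counts only through 5XFAD libraries. Its p-values and its place among the called list genes are therefore not used as support. In the IGF axis 0 of 15 tested genes passed at 6 months in edgeR or DESeq2. At that age 2 had an unadjusted p under 0.05 in edgeR (9.09% of all tested genes). At 11 months 1 of the 15 rose (3.8% of all tested genes). It was Igfbp5, a secreted binding protein of IGF, at 346, 250 and 374 CPM in 5XFAD libraries, against 189, 149 and 97.1 CPM in wild-type libraries. Igfbp5 rose at 11 months by 1.16 ± 0.23 (adjusted p = 0.0101; 0.0592 without 5XFAD replicate 3 and 0.0702 with only the compared groups in the fit) and stood at 0.63 ± 0.21 at 6 months (adjusted p = 0.296). Of 10 tested Gpnmb regulators and partners, 0 passed at 6 months in edgeR or DESeq2. In edgeR 1 of them had an unadjusted p under 0.05 at that age (9.09% of all tested genes). At 11 months Fnip2, a partner of folliculin in the control of Mitf-family factors, rose by 0.55 ± 0.11 (adjusted p = 0.00899; 0.0691 without 5XFAD replicate 3, 0.0689 with only the compared groups in the fit and 0.143 in limma on log2(TPM + 1)).

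**Figure D5:**
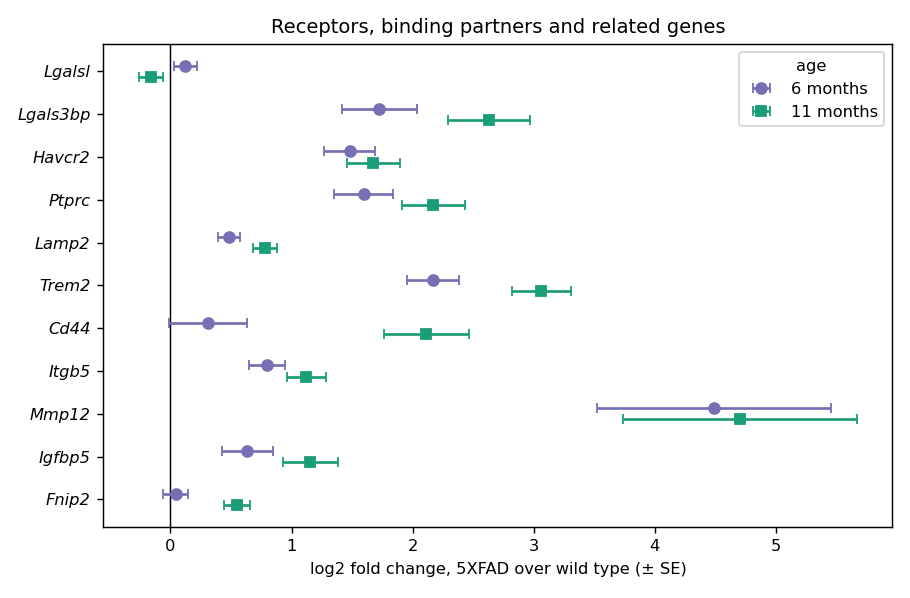
Log2 fold change of 5XFAD over wild type (horizontal axis, bars are SE) for the named receptors, partners and related genes at 6 months (circles) and 11 months (squares). Trem2 has values of 2.17 and 3.06, Cd44 is near 0.31 at 6 months and at 2.12 at 11 months, and the values of Mmp12 rest on 1 wild-type count per age.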

How the data were processed

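Per the labels' protocols, libraries were made by standard Illumina steps from column-purified total RNA. Per the submitters' processing notes, STAR 2.7.1 and RSEM were used with GRCm38. Of the RSEM version, annotation and strand setting the sources used here say nothing. The deposited expected counts are estimates in which RSEM shares reads that map to several genes, and they were rounded to whole numbers before testing. The deposited TPM values, scaled by the authors' quantifier for effective length, were used for levels between genes and in alternatives. The deposited transcript length is the abundance-weighted mean over a gene's isoforms. All 55536 identifiers matched GENCODE M21, which gave symbols and coordinates, and promoter windows came from RefSeq.

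The 6 genes and the gene lists were chosen with earlier results of these data known, and since wild-type libraries of both ages entered that choice, the planned test between them is given as values and counts only. All 13 libraries entered 1 model of 4 group means in edgeR 4.0.16 (R 4.3.3; TMM, filterByExpr with minimum count 10 and minimum total 15, robust quasi-likelihood), with Benjamini-Hochberg adjustment over 17483 genes and a threshold of 0.05. Standard errors were taken as the size of the unshrunken log2 fold change over the root of F. Alternatives were RLE scaling, DESeq2 1.42.0, no filter, limma 3.58.1 on log2(TPM + 1) and log2(TPM + 0.1), only the compared groups, sex as a covariate and leaving out each library; 1 alternative with a shorter list of microglia markers is not reported here. The fit was tested on simulated data. Groups came from titles, and the most alike of 78 library pairs differed by a chi-square of 6.25 per gene, so none was counted as a duplicate. Named beside the 6 genes were, per list, up to 5 genes with the smallest p among those past the threshold in a genotype comparison, or else the most abundant, and the 3 nearest genes in pattern with a group mean of at least 1 CPM.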

Additional observations from a re-analysis of the deposited data

Results flagged for a closer look

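Among 29 sets of 4 wild-type libraries at 6 months that were screened, 4 had a library set apart from the other 3 by more than 95% of sets would show by chance, and chance alone marks about 1 in 20. Trem2 was low in wild-type replicate 2, at 19.26 CPM. Mmp12 stood at 0.04063 CPM in wild-type replicate 2, which is 1 count, and at 0 in the other 3. The mean transcript length of Lgals1 was 798 bases in wild-type replicate 1 and 800 bases in the others, a difference of little size. In the Mmp12 and Lgals1 sets the other 3 values were equal, so a difference of any size would have been marked. The share of 1 in 20 does not apply to those sets. The mean transcript length of Lgals3 was 804.3 bases in wild-type replicate 4, where the group mean was 1015 bases.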

How the results depend on the processing

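No paired analysis was possible because the titles give every library its own number and the groups share none.

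Every direction of the fold changes of the 6 genes between the genotypes was kept under all alternatives run. The differences in ratio to microglia markers turned in some settings for Lgals9 and Spp1, as given below. On log2(TPM + 1) the median of all genes moved to -0.11 at 6 months and -0.12 at 11 months, and with + 0.1 to -0.13 and -0.15. On log2(TPM + 1) the values at 6 months were 0.66 for Gpnmb, 1.61 for Igf1, 0.98 for Lgals3 and 0.61 for Lgals9, and with + 0.1 they were 2.11 for Igf1 and 0.68 for Lgals9. At 11 months they were 2.89 for Gpnmb, 2.81 for Igf1 and 2.46 for Lgals3, and with + 0.1 they were 3.60, 3.30 and 3.28. For the growth of the genotype difference they were 2.22 for Gpnmb, 1.199 for Igf1 and 1.48 for Lgals3, with 1.18 for Igf1 at + 0.1. Between the 5XFAD ages they were 2.52 for Gpnmb and 1.49 for Igf1, with 1.61 for Igf1 at + 0.1. The Igf1 values carry the length difference described above, and the pseudocount lowers those of low genes.

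With sex as a covariate Lgals3 had 3.46 at 11 months, 1.56 for the growth and 0.69 between the 5XFAD ages. The growth of the other genes was then 2.77 for Gpnmb, 2.09 for Spp1, 0.69 for Lgals1, 0.53 for Igf1 and 0.50 for Lgals9. The cause was not tested. With TPM in the ratio to microglia markers Igf1 had 1.35 and 2.07 at the 2 ages and Gpnmb 2.41 at 11 months. The Lgals9 ratio turned to 0.0226 and 0.0800 with Csf1r alone. On log2(TPM + 1) and (TPM + 0.1) the 6-month values turned to -0.0103 and -0.0105 for Lgalsl and to -0.0444 and -0.0555 for Fnip2. Higher list genes at 11 months numbered 7 with only the compared groups in the fit, where fewer libraries estimate the spread, and DESeq2 called 1 lower.

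Leaving out each library in turn gave 1.64 to 2.22 for the Lgals3 growth and 0.35 to 0.79 for that of Lgals9. In the wild-type age comparison it gave -0.0483 to 0.41 for Gpnmb, negative without 11-month replicate 2, and -0.40 to 0.0985 for Spp1, positive without 11-month replicate 2 or 6-month replicate 3. The ratio to microglia markers ran from -0.0171 to 0.38 for Spp1 at 6 months and from -0.10 to 0.0785 for Lgals9 at 11 months. Higher list genes numbered 4 to 6 at 6 months, against 7 with all libraries, 4 being without wild-type replicate 4. At 11 months they numbered 8 to 13, and lower ones 0 to 1, the 1 being without wild-type replicate 2. Fnip2 at 6 months ran from -0.0113 to 0.0862. The shortening of Igf1 transcripts, an alternative chosen after seeing the data, ran from -1.04 to -0.82 at 6 months and from -1.47 to -1.18 at 11 months. Depth limits Lgals3 and Mmp12 in wild type, where counts were lowest.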
